A study of Mus musculus with 7 samples.

Results

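The genes described here encode the proteins of the mouse cytosolic ribosome. They were chosen by name, as Rpsa and every symbol made of Rpl, Rps or Rplp, a number and at most the suffix a or x, with pseudogene rows left out and with at least 10 counts in each of the 7 libraries. Of 54735 symbols in the count table, 76 matched the name and 74 passed the minimum. All 74 were also among the 17636 genes tested. The 2 that did not pass were Rpl24, with 0 to 21 counts per library, and Rps10, with 7 to 19. The member just inside the minimum was Rpl13a, with 36 to 73 counts.

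The libraries were made from total RNA of cardiac fibroblasts of pooled male and female mice, sorted by fluorescence and sequenced on an Illumina HiSeq instrument. All animals carried the R26eGFP reporter, a green fluorescent protein gene at the Rosa26 locus, and a MerCreMer allele, a Cre recombinase that tamoxifen switches on. The Cre was driven either by Postn, the gene of the matrix protein periostin, or by Tcf21, the gene of a transcription factor of fibroblasts and their epicardial precursors. The groups were PostnMCM;R26eGFP at 7 days of age (Postn P7, n = 2), Tcf21MCM;R26eGFP at 7 days (Tcf21 P7, n = 2) and Tcf21MCM;R26eGFP at 30 days (Tcf21 P30, n = 3). A sorted cell is thus one in which the driver had been active when the recombinase was induced, and the sort does not itself select for fibroblasts. The labels do not say whether libraries of a group came from separate animals, so p-values measure only the spread between these libraries, part of which may be technical.

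A ribosome is built from a large and a small subunit, each a core of ribosomal RNA clad in proteins, and with few exceptions a ribosome holds a single copy of each protein. The Rpl genes encode proteins of the large subunit, the Rps genes those of the small subunit, and Rplp0, Rplp1 and Rplp2 the acidic stalk that recruits translation factors. The messages of these genes begin with a 5′ terminal oligopyrimidine tract (TOP), a C followed by a run of C and T, through which growth signals acting by way of mTOR set how strongly they are translated.

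A pyrimidine run near the start was more frequent in the promoters of these genes than in those of all genes, though not in every one. RefSeq windows from 250 bases before to 50 bases after an annotated start were found for 54 of the 74 genes (64 windows, build GRCm38.p6). An uninterrupted run of at least 8 C or T within 25 bases of the start lay in 37 of the 64 windows (57.8%), against 24.1% of the 32851 windows of all genes. The motif CCGGAAG, which ETS factors such as GABPA can bind, was in 23 windows on either strand (35.9%, against 8.86% of all), and AAGATGGC, a form of the YY1 motif, was in 7 (10.9%, against 2.75%). A match describes letters only. Below are the 50 bases from 35 before to 15 after the start, 5′ to 3′ on the gene's strand, with the longest pyrimidine run of 8 or more in capitals. They are shown for genes with large (Rpl34, Rps26 and Rpl7a) or small (Rpl4 and Rpl5) differences between groups. Also shown are a TOP gene much used as a marker of growth signalling (Rps6), a gene near the median whose run spans the start (Rpl38), and a pair without such a run in this stretch (Rplp0 and Rpsa). The choice does not follow the rank of the differences. Rpl36a and Rpl11, which also fell far, are not shown. Rpl36a had no such run near its start, and that of Rpl11 begins at the end of this stretch. Rpl34 has another annotated start, whose window is not shown.
Rps6, chr4:86857353-86857402, minus strand: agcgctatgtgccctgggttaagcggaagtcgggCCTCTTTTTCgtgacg
Rpl38, chr11:114668545-114668594, plus strand: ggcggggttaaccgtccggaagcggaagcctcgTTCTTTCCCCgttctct
Rpl34, chr3:130730323-130730372, minus strand: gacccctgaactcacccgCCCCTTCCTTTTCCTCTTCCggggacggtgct
Rps26, chr10:128626492-128626541, minus strand: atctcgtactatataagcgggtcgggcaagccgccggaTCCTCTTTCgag
Rpl7a, chr2:26910772-26910821, plus strand: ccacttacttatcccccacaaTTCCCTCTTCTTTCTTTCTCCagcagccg
Rpl4, chr9:64173352-64173401, plus strand: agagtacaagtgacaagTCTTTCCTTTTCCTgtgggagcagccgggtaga
Rpl5, chr5:107900493-107900542, plus strand: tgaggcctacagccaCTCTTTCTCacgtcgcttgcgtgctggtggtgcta
Rplp0, chr5:115559432-115559481, plus strand: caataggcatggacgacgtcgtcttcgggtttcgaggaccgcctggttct
Rpsa, chr9:120127731-120127780, plus strand: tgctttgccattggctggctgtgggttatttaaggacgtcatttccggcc

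Library totals ran from 15207835 to 18519528 counts, and levels are given below as normalised CPM, in which each library's total is adjusted by edgeR's TMM factor. The 8 fibroblast markers summed to 33200 and 40500 CPM in Postn P7, 45500 and 45400 in Tcf21 P7, and 24900, 30600 and 28800 in Tcf21 P30. Col1a1, Col1a2, Col3a1, Dcn, Lum, Pdgfra, Ddr2 and Tcf21 were all detected in every library. With age Pdgfra and Ddr2 rose and the 3 collagens fell. Markers of other cells were present too. Replicate 1 of Tcf21 P30 stood apart by its 10 endothelial markers, whose summed level was 3720 CPM against 1010 and 1190 in its group, and replicate 1 of Postn P7 held 1680 against 1040 in replicate 2. The pair of Tcf21 P7 libraries were more alike than other replicates. Their counts differed by a chi-square of 3.55 per degree of freedom, above sampling noise, while pairs within the other groups gave 10.8 to 42. They were kept as 2 replicates.

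Ribosomal protein genes were highest in Tcf21 P7. The 74 genes took 0.817% and 0.829% of all counts in the Tcf21 P7 libraries, 0.679% and 0.527% in Postn P7, and 0.643%, 0.503% and 0.613% in Tcf21 P30. Both Tcf21 P7 libraries lay above the 5 others, and the ranges of Postn P7 and Tcf21 P30 overlapped. Group means were 0.823% ± 0.00832 (SD, n = 2), 0.603% ± 0.107 (SD, n = 2) and 0.587% ± 0.0736 (SD, n = 3). Gene by gene, 72 of the 74 had both Tcf21 P7 libraries above all 5 others, which 16.8% of all genes tested did. The 2 exceptions were Rpl5 and Rpl13a. In these bulk samples, fewer cells of a type and less RNA per cell cannot be told apart.

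**Figure D1:**
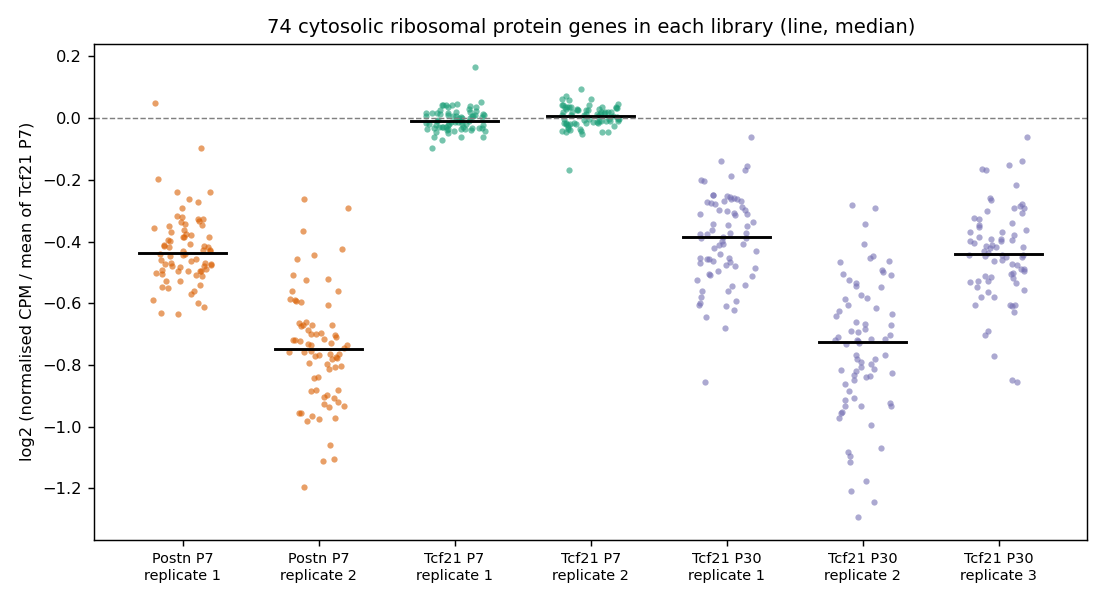
Each point is 1 of 74 ribosomal protein genes, as the log2 ratio of its normalised CPM in a library (x axis) to its mean in the Tcf21 P7 libraries, with the median as a line. Medians are -0.01 and 0.01 in Tcf21 P7, -0.44 and -0.75 in Postn P7, and -0.39, -0.72 and -0.44 in Tcf21 P30.

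Within groups the genes moved together from library to library. Replicate 1 of Postn P7 was above replicate 2 for 73 of 74 genes, by a median of 0.32 on the log2 scale, while the median over all genes was -0.02. In Tcf21 P30, replicate 2 was below replicate 1 for 74 of 74 genes (median log2 ratio of replicate 1 to 2, 0.34). Replicates 1 and 3 of that group lay close together, with a median ratio of 0.04. The Tcf21 P7 libraries differed by a median of -0.02, and 34 of the 74 genes were higher in replicate 1. As a spread of the median gene, this came to an SD of 0.22 in Postn P7, 0.18 in Tcf21 P30 and 0.01 in Tcf21 P7. The libraries with the lowest ribosomal protein levels in their group were also lowest for the summed mitochondrially encoded messages, at 1290 CPM against 2010 in Postn P7 and 1230 against 2340 and 2150 in Tcf21 P30. The same held for erythroid markers, at 68.0 against 366 and at 181 against 618 and 290 CPM. The part of either in the levels of the ribosomal protein genes was not tested.

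The first comparison set the Postn lineage against the Tcf21 lineage at the same age. Ribosomal protein genes were lower in Postn P7: 40 of 74 fell, none rose, and the other 34 also had fitted values below 0. At an unadjusted p under 0.05 there were 70, or 94.6%, against 30.4% of all genes tested. By edgeR's quasi-likelihood test with Benjamini-Hochberg adjustment over all genes, 5.49% of genes tested fell and 6.52% rose. The median log2 difference was -0.58, or 1.5-fold lower, with a median standard error of 0.16 per gene, against 0.00 over all genes tested. The 40 calls ran from -0.42 to -0.78, with adjusted p from 0.014 to 0.048. Of the large subunit 24 of 45 fell (median -0.56), and of the small subunit 16 of 29 (median -0.62). Every call was lost without replicate 2 of Postn P7 or without either Tcf21 P7 library (0 of 74 by edgeR, with 42, 58 and 54 at an unadjusted p under 0.05), 7 were left without replicate 3 of Tcf21 P30, 6 with library totals alone as the scale and 19 after a correction for transcript length. Calls were lost across all genes too, where the 969 lower became 203 without Postn P7 replicate 2, 33 and 31 without a Tcf21 P7 library, and 332 without Tcf21 P30 replicate 3. The count rose to 64 with no filter on low counts. Over all genes the 969 lower of 17636 tested became 1329 of 33172 there, a smaller share. Over all genes, 758 were lower with the length correction and 472 with library totals alone. The median of the 74 genes stayed between -0.75 and -0.44 in all of these fits. Without the 2 libraries richest in endothelial transcripts it was -0.75. That fit had 1 Postn P7 library, replicate 2, the lower of the pair for these genes. Leaving out Postn P7 replicate 1 alone also gave -0.75.

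The second comparison followed the Tcf21 lineage from 7 to 30 days. Again 57 of 74 genes fell with age, none rose, and all 74 had fitted values below 0. Of all genes tested 15.0% fell and 16.7% rose. The median log2 difference was -0.53, or 1.44-fold lower, with a median standard error of 0.14, against 0.03 over all genes. Calls ran from -0.27 to -0.96, with adjusted p from 0.0015 to 0.049. The large subunit had 34 of 45 genes lower (median -0.47) and the small subunit 23 of 29 (median -0.55). Without Tcf21 P7 replicate 1 or 2 the count was 8 or 6, and without Tcf21 P30 replicate 2 or 3 it was 34 or 36. Over all genes the 2652 lower became 1170 or 1142, and 2318 or 1823, in the same fits. Both comparisons use the same pair of Tcf21 P7 libraries, so their directions are not independent of each other.

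**Figure D2:**
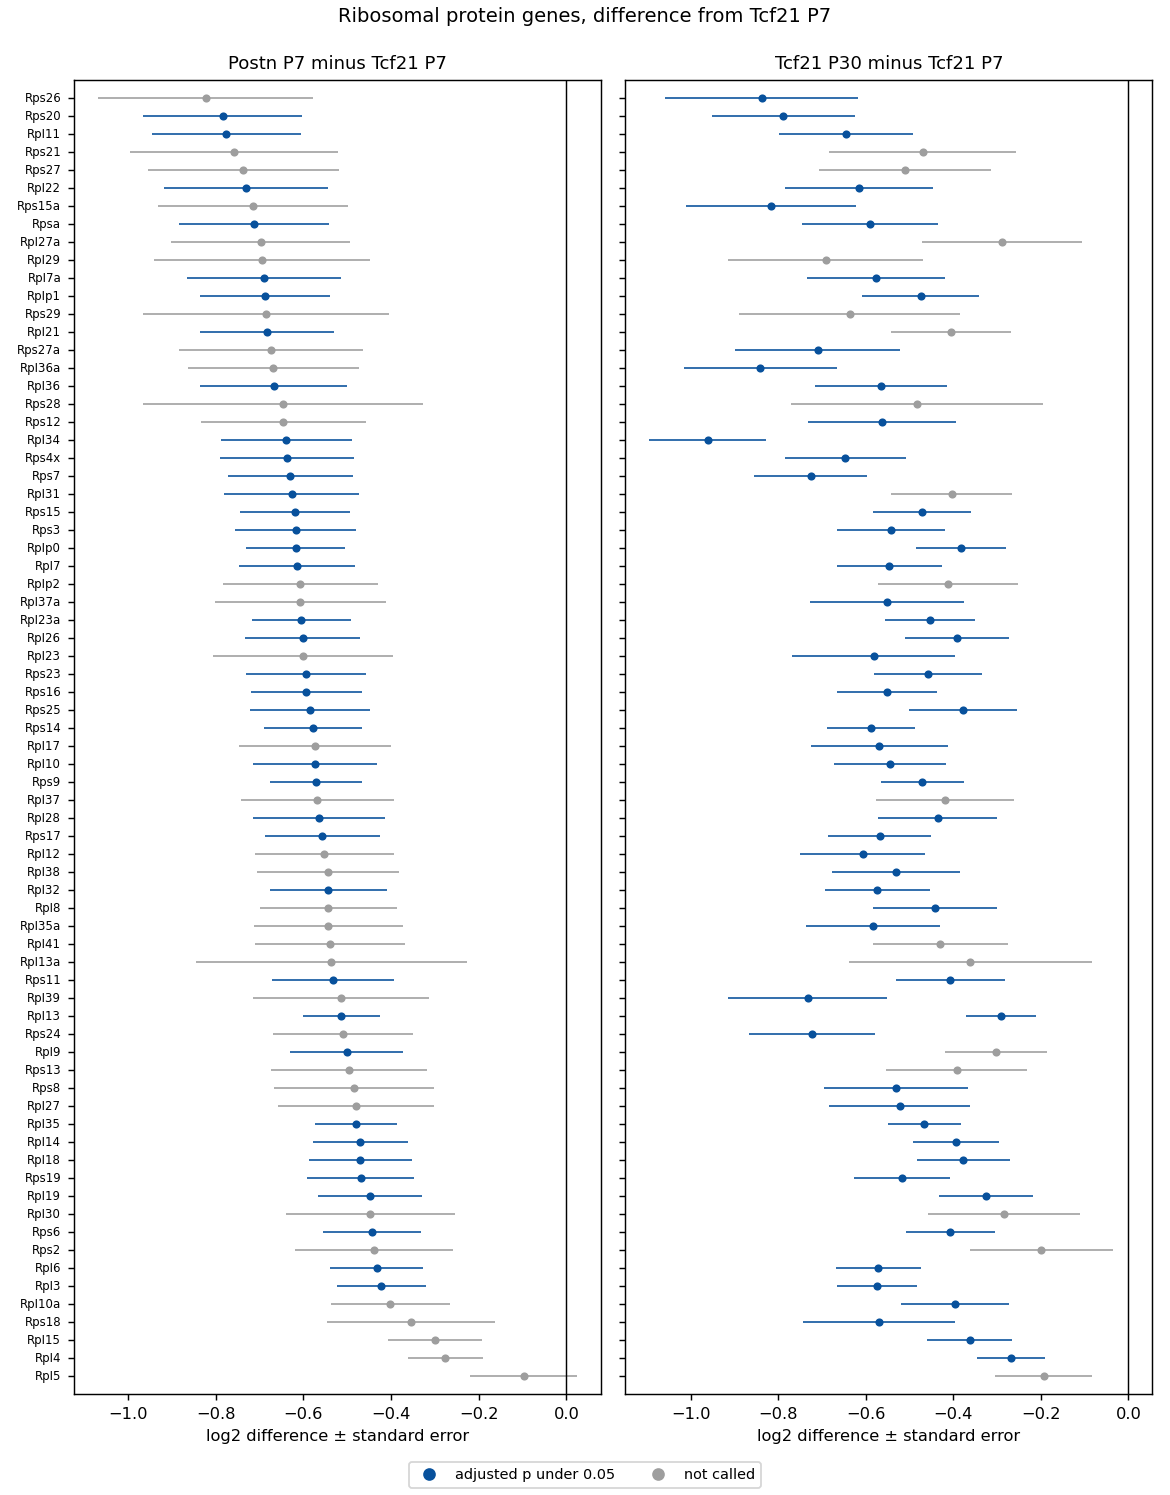
Points are fitted log2 differences from Tcf21 P7 with their standard errors for 72 of the 74 genes, Postn P7 on the left and Tcf21 P30 on the right, in blue where the adjusted p was under 0.05. All points lie below 0; of the genes drawn, 38 are called on the left and 55 on the right.

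The third comparison, Postn P7 against Tcf21 P30, uses no Tcf21 P7 library in its difference, but the same Postn P7 and Tcf21 P30 libraries as the other two. No ribosomal protein gene was called in either direction by edgeR, limma-voom or DESeq2, where edgeR called 11.7% of all genes higher and 12.5% lower. At an unadjusted p under 0.05, edgeR had 2 genes, limma-voom 3 and DESeq2 1. The edgeR share was 2.7%, against 36.3% of all genes tested. The median log2 difference was -0.07, with a range from -0.41 to 0.32 and a median standard error of 0.14 per gene. Of the 74, 51 were below 0. A missed threshold does not show equal levels. The genes with the smallest p were Rpl13 (-0.22 ± 0.08), Rpl34 (0.32 ± 0.14), Rplp0 (-0.23 ± 0.10), Rpl27a (-0.41 ± 0.19) and Rpl21 (-0.28 ± 0.14), all log2 differences ± SE, with adjusted p of 0.085, 0.13, 0.14, 0.16 and 0.2. Without both endothelial-rich libraries the median log2 difference was -0.16, and without Postn P7 replicate 1 it was -0.24. Both fits had 1 Postn P7 library. Some of the 74 genes were called lower in them, a smaller share than over all genes tested. Without Postn P7 replicate 2, which also left 1 library, the median was 0.07. With library totals alone it was 0.04, with 28 of the 74 genes below 0. On that scale the median of all genes was 0.095. After the length correction the median of the 74 was 0.00, with 37 below 0. In that fit 1 gene was higher, against 1983 of all 17636 genes tested.

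**Figure D3:**
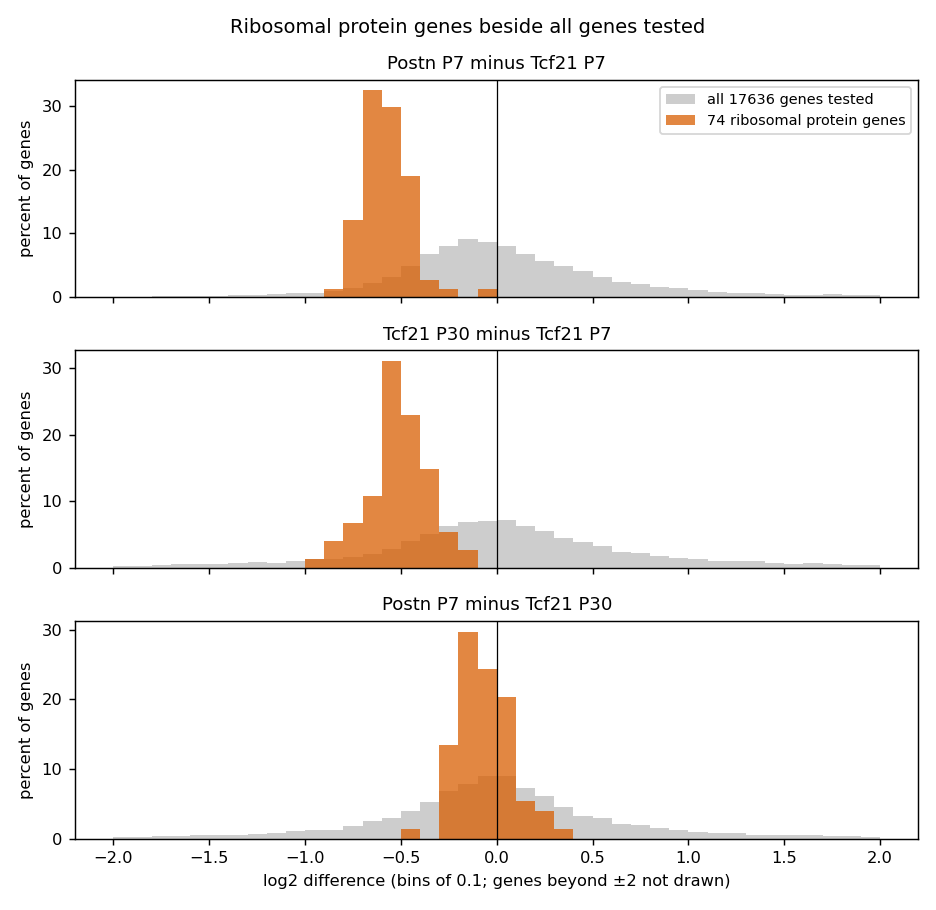
Histograms of the fitted log2 difference, in bins of 0.1, for the 74 ribosomal protein genes (orange) and all 17636 genes tested (grey), as percent of each. The ribosomal protein genes have medians of -0.58, -0.53 and -0.07 in the 3 panels, against 0.00, 0.03 and -0.01 for all genes.

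The stalk proteins, which form the landing site of elongation factors, are taken first. Rplp0 (chromosome 5, 115559467 to 115563727, build GRCm38), the base of the stalk, was at 306 and 255 CPM in Postn P7, 432 and 428 in Tcf21 P7, and 350, 314 and 326 in Tcf21 P30. Tcf21 P7 was the highest group with no overlap, and Postn P7 held the lowest library. The log2 difference was -0.62 ± 0.11 (SE) in Postn P7 (adjusted p = 0.018, edgeR) and -0.38 ± 0.10 in Tcf21 P30 (adjusted p = 0.025). Rplp1, a tip protein of the stalk, was at 89.1 and 72.7, 130 and 130, and 102, 79.1 and 99.7 CPM in the same order, and fell by 0.69 and 0.47 on the log2 scale. Rplp2, its partner, was at 66.7 and 51.0, 92.4 and 87.0, and 74.3, 54.9 and 72.8 CPM. Its groups did not overlap with Tcf21 P7 either, but neither difference passed the test (-0.61, adjusted p = 0.063, and -0.41, adjusted p = 0.084).

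Rpl5 and Rpl11 bind the 5S ribosomal RNA, and outside the ribosome that complex holds back Mdm2, the ubiquitin ligase of p53. Rpl11 passed the test in both comparisons and Rpl5 in neither. Rpl11 (chromosome 4, 136028265 to 136053428) was at 47.3 and 38.4 CPM in Postn P7, 70.4 and 76.5 in Tcf21 P7, and 49.1, 38.4 and 53.2 in Tcf21 P30. Tcf21 P7 lay above all other libraries, and the log2 differences were -0.78 ± 0.17 (adjusted p = 0.028) and -0.65 ± 0.15 (adjusted p = 0.015). Rpl5 (chromosome 5, 107900502 to 107909005) was at 65.0 and 52.4, 63.5 and 62.1, and 55.9, 51.7 and 57.1 CPM. A Postn P7 library was the highest and the groups overlapped, with log2 differences of -0.10 ± 0.12 (adjusted p = 0.64) and -0.19 ± 0.11 (adjusted p = 0.22). The first of these was the smallest of the 74, and it turned to 0.04 without Postn P7 replicate 2. With library totals alone it was 0.02, a scale on which the median of all genes was itself at 0.12. Exons of other genes on the opposite strand cover 46.6% of the Rpl5 transcript, and whether counting used strand is not stated. The difference between Rpl5 and Rpl11 was not itself tested.

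Other proteins of the large subunit covered most of the range. Rpl34 (chromosome 3, 130726831 to 130730398) fell furthest with age, from 88.0 and 92.4 CPM in Tcf21 P7 to 49.9, 39.1 and 50.1 in Tcf21 P30, with 63.4 and 52.5 in Postn P7. The 3 groups did not overlap, and the log2 differences were -0.96 ± 0.13 at 30 days (adjusted p = 0.0015) and -0.64 ± 0.15 in Postn P7 (adjusted p = 0.034). At the other end was Rpl4, named after its values were seen, with 305 and 298, 363 and 367, and 307, 298 and 304 CPM. It fell with age by 0.27 on the log2 scale (adjusted p = 0.031), and its difference in Postn P7 was -0.28 (adjusted p = 0.071). Rpl3, which sits next to the peptidyl transferase centre, fell by 0.42 in Postn P7 and by 0.57 at 30 days. Rpl10, which joins late in subunit maturation, fell by 0.57 and 0.54. Rpl22 fell by 0.73 and 0.62. Rpl7a, Rpl21 and Rpl36 fell in Postn P7 by 0.69, 0.68 and 0.67. Rpl21 at 30 days was at -0.41 with an adjusted p of 0.055, while Rpl7a and Rpl36 fell there by 0.58 and 0.57.

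Several large subunit genes passed in the age comparison and not in the lineage comparison. Rpl10a fell by 0.40 at 30 days and was at -0.40 in Postn P7 (adjusted p = 0.091). Rpl23, which like Rpl11 can bind Mdm2, fell by 0.58 and was at -0.60 (adjusted p = 0.096). Rpl38, known for its part in the translation of Hox messages in the embryo, fell by 0.53 and was at -0.54 (adjusted p = 0.066). In these 3 genes the fitted differences were of similar size in both comparisons. The opposite case was Rpl9, which fell in Postn P7 by 0.50 and was at -0.30 at 30 days (adjusted p = 0.082). Rpl36a and Rpl39, both X-linked, fell at 30 days by 0.84 and 0.73. In all, the 4 X-linked genes (Rpl10, Rpl36a, Rpl39 and Rps4x) had medians of -0.69 at 30 days and -0.61 in Postn P7. Each library pooled male and female mice in proportions that are not stated.

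In the small subunit the largest fall in Postn P7 was that of Rps20 (chromosome 4, 3831334 to 3835665). It was at 75.6 and 58.4 CPM in Postn P7, 117 and 114 in Tcf21 P7, and 78.3, 54.5 and 67.7 in Tcf21 P30. Both other groups lay well below Tcf21 P7 and overlapped each other, with log2 differences of -0.78 ± 0.18 (adjusted p = 0.033) and -0.79 ± 0.16 (adjusted p = 0.0086). Rps26, which lines the messenger RNA exit channel, was at 55.7 and 39.1, 84.7 and 83.1, and 54.6, 34.2 and 52.0 CPM. Its fitted difference in Postn P7, -0.82 ± 0.25, was the largest of the 74 and was not called (adjusted p = 0.072). At 30 days it fell by 0.84 (adjusted p = 0.026). Rps15a, Rps7, Rps24 and Rps27a fell at 30 days by 0.82, 0.73, 0.72 and 0.71, and of these Rps7 also fell in Postn P7, by 0.63.

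Rps6 is the substrate of the S6 kinases downstream of mTOR. It was at 61.9 and 60.7 CPM in Postn P7, 80.9 and 86.0 in Tcf21 P7, and 69.5, 57.6 and 61.6 in Tcf21 P30, and fell by 0.44 (adjusted p = 0.041) and 0.41 (adjusted p = 0.018). Rpsa, also known as the laminin receptor, was at 130 and 93.4, 179 and 187, and 131, 104 and 129 CPM. Both Tcf21 P7 libraries were above the rest, and it fell by 0.71 (adjusted p = 0.038) and 0.59 (adjusted p = 0.023). Rps19, the gene most often mutated in Diamond-Blackfan anaemia, fell by 0.47 and 0.52, and Rps4x by 0.64 and 0.65.

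Levels per kilobase of transcript spanned a wide range between genes. By normalised CPM per kilobase averaged over the 7 libraries, Rpl32 (297), Rps14 (271), Rplp0 (254), Rpl13 (248) and Rpl41 (241) were highest. Rpl13a (2.9), Rps20 (21.8), Rpl5 (28.5), Rpl27a (31.1) and Rps24 (42.6) were lowest. The order hardly separates neighbours: in Tcf21 P7, Rpl13 was at 297 ± 8.07 and Rpl41 at 301 ± 9.26 CPM per kilobase (SD, n = 2). For Rps20 the transcript used is 3706 bases long, the longest of the members, and its value depends on that choice. Rpl13a, Rpl24 and Rps10 stand below every other symbol that matched the name, and each has an annotated read-through or overlapping gene on its own strand, covering 59.3%, 71.5% and 91.6% of the transcript. Those overlapping genes had 0 counts in every library. The 72 members with no such overlap had at least 311 counts in every library. The treatment of reads in shared exons is not stated, so for these 3 genes low expression and uncounted reads cannot be told apart.

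**Figure D4:**
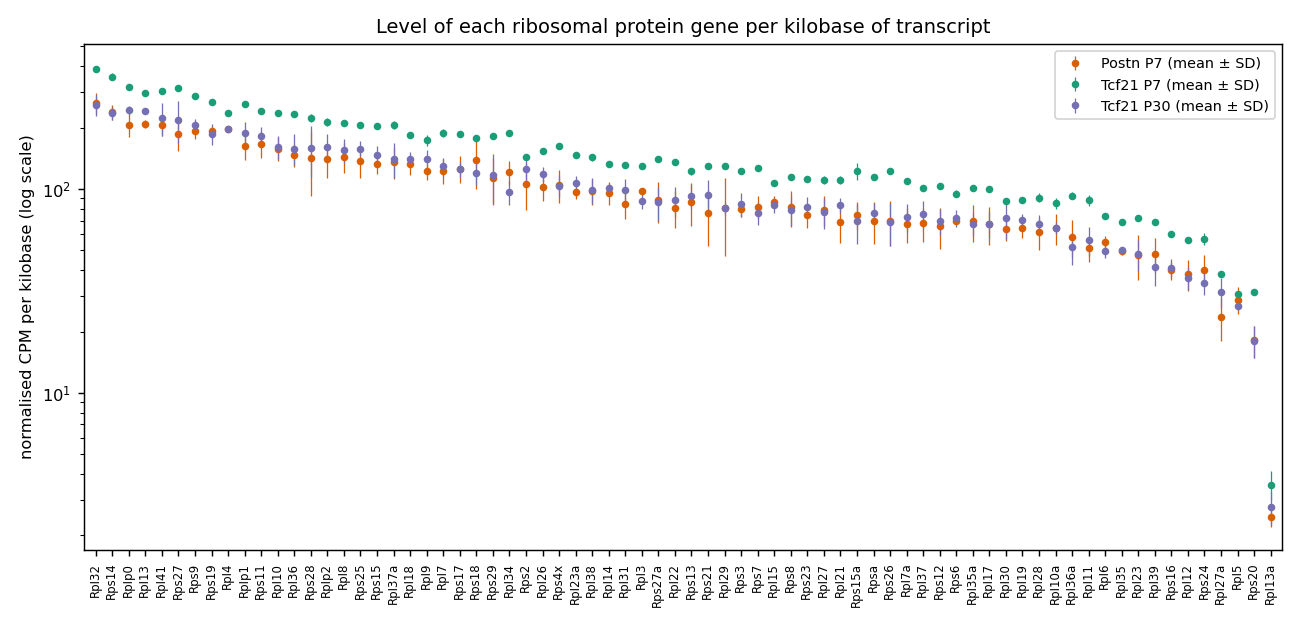
Mean normalised CPM per kilobase ± SD (log axis) of 72 of the 74 genes by group, ordered by the mean of 7 libraries. Tcf21 P7 (green) is the highest group for every gene drawn, by little for Rpl5, and Rpl13a stands alone at the low end.

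Pseudogenes are the other hazard of this gene family, since processed copies of these messages lie across the genome. The table has 291 pseudogene rows of 58 members, and together they held 1.14% of the counts of members and pseudogenes combined. The largest shares were 13.0% for Rps16 and 12.5% for Rpl13a. With their counts added to the parent gene, 38 genes fell in Postn P7 and 58 at 30 days. Of all 17596 genes tested in that fit, 856 and 2663 fell.

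Ribosomal proteins outside the name rule and other TOP messages were counted as lists. Of 11 tested paralogs and ribosomal proteins under other names, 3 fell in Postn P7 and 4 at 30 days, with 1 rise. The 4 include Rps4l, which the annotation calls a transcribed processed pseudogene. Rps3a1, a core protein of the small subunit, passed in neither comparison. It was at 106 and 63.0 CPM in Postn P7, 114 and 117 in Tcf21 P7, and 126, 96.7 and 117 in Tcf21 P30, with log2 differences of -0.45 (adjusted p = 0.25) and -0.03 (adjusted p = 0.93). Fau, which encodes Rps30 fused to a ubiquitin-like protein, fell by 0.63 and 0.50. Rack1, the scaffold on the head of the small subunit, fell by 0.50 and 0.46. The rise was that of Rpl3l, the striated muscle paralog of Rpl3, at 0.68 and 0.81 CPM in Tcf21 P7 and 4.54, 2.03 and 1.76 at 30 days. Among 16 other TOP messages, 5 fell in Postn P7 (median -0.32) and 11 at 30 days (median -0.42), and none rose. Eef2, the translocation factor, was at 444 and 452, 693 and 697, and 451, 400 and 399 CPM, with differences of -0.63 (adjusted p = 0.012) and -0.74 (adjusted p = 0.00085). Eif3f fell by 0.68 and 0.88, and Eef1a1, the carrier of aminoacyl-tRNA, by 0.42 and 0.45.

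Genes that act around the ribosome had calls in both directions in most lists. Of 29 initiation factors, 4 rose and 1 fell in Postn P7. The rises were above the 6.52% of all genes tested, and the fall was below the 5.49%. At 30 days 5 rose and 3 fell, close to or below the 16.7% and 15.0% of all genes tested. The same shares of all genes hold for the other lists counted here. Eif4a2 rose by 0.64 and 0.74, and Eif3i fell by 0.55 and 0.45. Ribosome biogenesis genes had 2 higher and 3 lower of 43 in Postn P7, and 10 higher and 2 lower at 30 days. Dkc1, the pseudouridine synthase of ribosomal RNA, rose by 0.70 at 30 days. Mitochondrial ribosomal proteins, which belong to a separate ribosome, had 13 of 77 lower and none higher in Postn P7 (median -0.25), and 6 lower and 3 higher at 30 days (median -0.09). Their sums were 2470 and 2370 CPM in Postn P7, 2880 and 2900 in Tcf21 P7, and 2760, 2800 and 2730 in Tcf21 P30. Both Tcf21 P7 libraries were thus highest here too. Among 18 regulators of ribosomal protein synthesis 1 rose and 2 fell in Postn P7, and 4 rose and 6 fell at 30 days. Deptor, an inhibitor of mTOR, rose by 1.46 with age, Mycn by 1.12 and Myc by 1.00. Max, the partner of Myc, fell by 1.14 and 1.17.

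Some measures moved in the same libraries as the ribosomal protein genes. Macrophage markers fell in both comparisons, 9 of 10 each, and none of the 10 was at 0. Their summed level was 348 and 477 CPM in Postn P7, 1220 and 1210 in Tcf21 P7, and 630, 420 and 439 in Tcf21 P30. The summed fibroblast markers were also highest in both Tcf21 P7 libraries. Of those 8 genes 0 were called in Postn P7, and 2 rose and 3 fell at 30 days. Nuclear-retained RNAs took the opposite course: 5 of 5 rose in Postn P7 and 4 of 5 at 30 days, with sums of 1310 and 1540, 389 and 380, and 1700, 1750 and 1620 CPM. Malat1, a nuclear speckle RNA, rose by 1.87 and 2.09 on the log2 scale. The 18 mitosis genes did not follow this pattern and differed by both lineage and age, with sums of 738 and 656 in Postn P7, 503 and 482 in Tcf21 P7, and 155 to 179 in Tcf21 P30. Of them 4 rose in Postn P7 and 17 fell at 30 days. Of the other lists, Pdgfrb was the 1 of 6 pericyte markers called, and rose in both comparisons, as did 1 of 3 tested Schwann cell markers. No endothelial, smooth muscle, cardiomyocyte, erythroid or epicardial marker and no mitochondrially encoded message was called in either comparison by edgeR (35 genes tested, of which 0 and 3 had an unadjusted p under 0.05). The part of these cell markers and of nuclear RNA in the levels of the ribosomal protein genes was not tested.

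**Figure D5:**
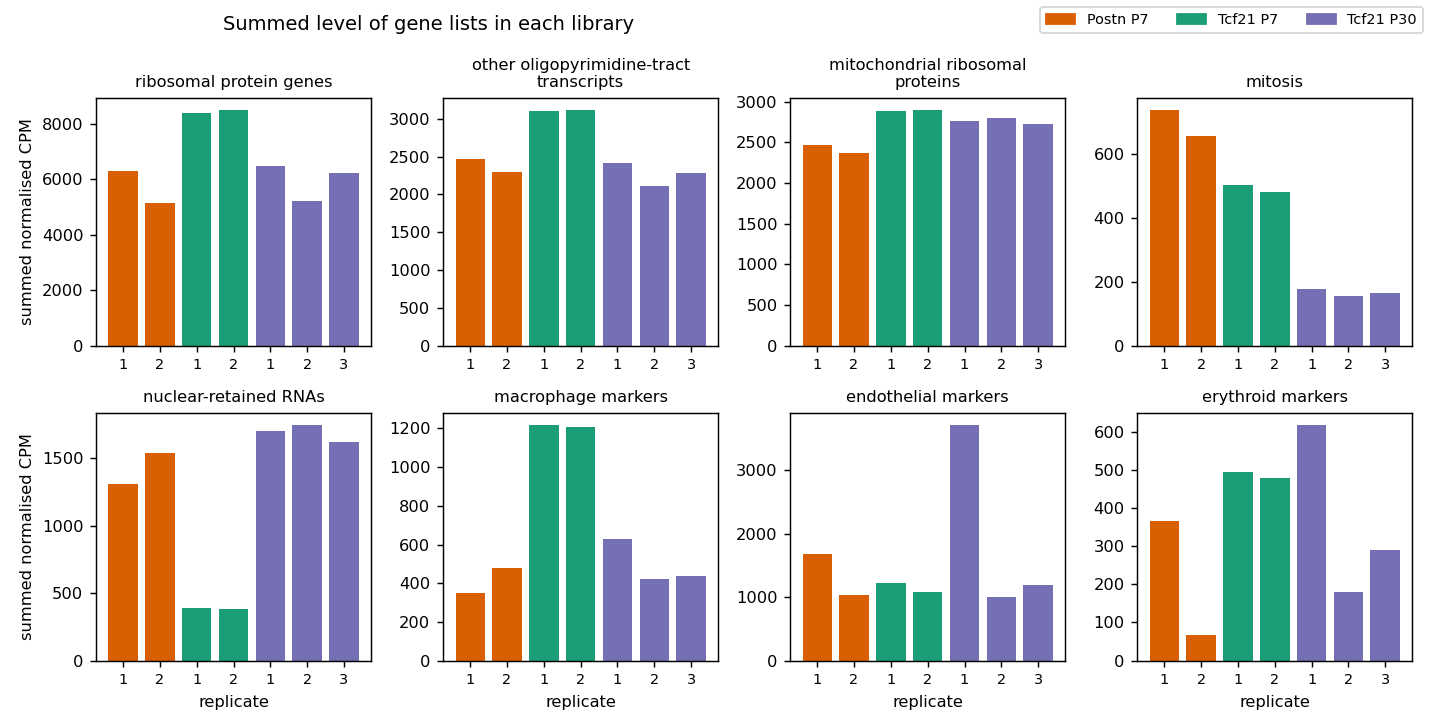
Bars give the summed normalised CPM of 8 gene lists in each of the 7 libraries, coloured by group. Ribosomal protein genes, other TOP messages, mitochondrial ribosomal proteins and macrophage markers are highest in both Tcf21 P7 libraries. Nuclear-retained RNAs are lowest there, and endothelial markers peak in Tcf21 P30 replicate 1.

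Transcript length was a further such measure, since ribosomal protein messages are short. In Postn P7 against Tcf21 P7, other genes under 500 bases had a median log2 difference of -0.04, those of 500 to 1000 bases one of -0.15 and those over 4000 bases one of 0.10. The 16 ribosomal protein genes under 500 bases were at -0.65, the 41 of 500 to 1000 bases at -0.57 and the 17 over 1000 bases at -0.59. At 30 days the medians of other genes were -0.02 at 500 to 1000 bases and 0.03 over 4000, against -0.47 for ribosomal protein genes of 500 to 1000 bases. Across the 74 genes, which share libraries and depth, the log2 difference had a Pearson r of 0.21 with log2 length in Postn P7 and of 0.06 at 30 days.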

How the data were processed

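The authors deposited raw counts by gene symbol, in 1 table that covers all libraries. Reads were aligned with STAR to GRCm38, per the submitters' processing notes. How reads were counted (program, annotation, strand, reads with several places) and the version of STAR are not given in the sources used here. After edgeR's filterByExpr had dropped thinly counted genes, libraries were scaled by TMM, and all 7 were fitted together by robust quasi-likelihood in edgeR 4.0.16 (R 4.3.3), with a mean per group. P-values were adjusted by Benjamini-Hochberg over 17636 genes, threshold 0.05. Standard errors are the absolute log2 difference divided by the square root of F. The code was tested on simulated data. Alternatives used DESeq2 1.42.0, limma 3.58.1, other scalings and filters, left-out libraries and a lowess length correction (span 0.3). Coordinates and lengths (shortest complete principal transcript) are from GENCODE M21. Members and lists were chosen with earlier results of these data known. Named genes are the 10 largest called changes per comparison (or the 5 with the smallest p), fixed members of each role, the 5 highest and lowest per kilobase, those at the count minimum, and at most 4 called genes per list. A few genes that this rule names are not reported here.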

Additional observations from a re-analysis of the deposited data

How the results depend on the processing

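For Postn P7 against Tcf21 P7, where 40 genes were lower, library totals alone gave 6, no filter 64, leaving out both endothelial-rich libraries 69, and the length correction 19. Leaving out 1 library at a time gave 0 to 52. For Tcf21 P30 against Tcf21 P7 (57 lower), leaving out 1 library gave 6 to 61. For Postn P7 against Tcf21 P30 (0 called), the length correction gave 1 higher, against 1983 of all genes. Some genes were called lower without Postn P7 replicate 1 or without both endothelial-rich libraries (medians -0.24 and -0.16), a smaller share than over all genes. Where a group was left with 1 library, that library was assumed to vary like the other groups. Rpl5 in Postn P7 turned from -0.10 to 0.02 with library totals alone and to 0.038 without Postn P7 replicate 2 (range -0.267 to 0.038 over left-out libraries). The cause of these changes was not tested. Library totals alone moved the median of all genes in Postn P7 against Tcf21 P7 from 0.00 to 0.12, and the calls from 1149 higher and 969 lower to 1741 and 472, so the median of the ribosomal protein genes relative to all genes stayed at -0.58. Not set relative to all genes, the median of the ribosomal protein genes over all alternatives ran from -0.75 to -0.44 in the first comparison, -0.59 to -0.42 in the second and -0.24 to 0.07 in the third. Other tools gave 59 and 61 lower (DESeq2) and 41 and 60 (limma-voom). Over all genes DESeq2 had 1075 and 2526 lower of 33172, and limma-voom 1054 and 2782 of 17636. Replicate numbers do not pair the libraries by the labels. Deviations from the group mean correlated by 0.05 to 0.41 between libraries of equal number. The 6 libraries whose number occurs in another group all correlated best with that number. In Postn P7 and in Tcf21 P7, replicate 2 departs from the mean as far as replicate 1, with the sign reversed. Matches of these replicates are thus not independent, and no pairing is concluded from the 6. With the replicate block, 45, 57 and 0 genes were lower, against 716, 2194 and 1737 of all 17636 genes tested.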
